A study of Mus musculus with 167 samples.

Results

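MiRNA profiles of the brain were compared between irradiated and sham irradiated C57 mice, using the 20 C57 brain libraries among the 167 libraries of the series. The libraries were selected by their labels alone (strain C57Bl/6, tissue brain), without use of any measured value. Of these, 5 came from mice that had received whole thorax lung irradiation (WTLI), a single X-ray dose to the chest given under lead shielding of all other regions, and 15 came from sham irradiated mice. Tissue was taken in month 6. The mice were young adults at exposure, and no engineered allele was given for any group. The irradiated mice comprised 4 males and 1 female, and the sham mice 8 males and 7 females. Each library was 1 animal, and the same animals also gave lung and heart libraries. The fitted model also held 15 brain libraries of C3H mice, 7 irradiated and 8 sham, all female and sampled in month 4. These C3H libraries shared in the count filter, the normalisation and the estimate of the spread. The brain lay outside the radiation field, so the comparison asks whether the miRNA profile of a shielded organ differed from that of sham mice at the endpoint at which this strain develops lung fibrosis. The part of the brain that was homogenised was not given. The irradiated animals were those alive at the endpoint after a dose chosen to be lethal for most mice, which limits them as a model of all exposed mice.

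MiRNAs are short RNAs that guide Argonaute proteins to messenger RNAs, mostly through pairing of a seed near the 5′ end, and lower the stability or translation of these targets. The brain has a rich set of its own. MiR-124 and miR-9 are abundant in neurons and neural progenitors, miR-219a and miR-338 act in oligodendrocyte maturation, miR-132, miR-212 and miR-134 are linked to neuronal activity and dendrites, and a large imprinted cluster between Dlk1 and Dio3 is expressed mainly in neurons. MiR-142a, miR-150 and miR-223 mark leukocytes, and miR-146a, miR-155 and miR-21a are induced in inflammation and gliosis.

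The libraries carried a brain profile. MiR-9-5p was between 50023 and 103401 RPM (reads per 10 to the power of 6 counts of the library) in the 20 C57 brain libraries, against at most 383 RPM in C57 lung or heart libraries. MiR-128-3p was at least 40511 RPM in brain and at most 526 RPM in lung or heart, and miR-124-3p was at least 921 RPM in brain and at most 27.2 RPM in lung or heart. MiR-208a-3p, which is specific to heart muscle, had at most 1 count in any C57 brain library. Library totals ranged from 1794995 to 3764289 counts. Irradiated libraries held 2757377 ± 347278 counts (SD, n = 5) and sham libraries 3018653 ± 598488 (SD, n = 15), and the exact permutation test over all 15504 splits (two-sided) gave p = 0.373 (adjusted p = 0.745 over 2 measures). The number of miRNAs detected was 687 ± 19.7 in irradiated and 691 ± 28.3 in sham libraries (exact permutation p = 0.797, adjusted p = 0.797). The 10 most abundant miRNAs, led by the endothelial miR-126a-3p at 13.1% ± 2.07 of sham counts (SD, n = 15), took between 54.0% and 61.1% of each C57 brain library. Most female libraries stood apart from the males. The median correlation of a library's normalised log2 values with those of the other C57 brain libraries was 0.979 to 0.988 in sham males, 0.983 to 0.986 in irradiated males, 0.942 to 0.980 in sham females and 0.950 in the irradiated female, replicate 5 of the irradiated group. The 20 libraries included 12 from males, so a male library had more of its own sex to match.

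The mature sequences of the miRNAs on which the comparison turns are shown 5′ to 3′, from RefSeq (GRCm38.p6), with the seed (bases 2 to 8) in capitals. The first set holds 10 of the miRNAs with an unadjusted p under 0.05, shown because their levels are described library by library.
miR-130b-3p: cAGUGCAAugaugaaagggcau
miR-130b-5p: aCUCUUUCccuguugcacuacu
miR-374b-5p: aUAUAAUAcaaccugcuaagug
miR-140-3p: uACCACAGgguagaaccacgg
miR-127-3p: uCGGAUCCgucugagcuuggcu
miR-127-5p: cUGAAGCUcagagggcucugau
miR-134-5p: uGUGACUGguugaccagagggg
miR-1969: aAGAUGGAgacuuuaacaugggu
miR-185-3p: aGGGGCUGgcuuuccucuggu
miR-138-1-3p: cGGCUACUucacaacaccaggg
These 10 miRNAs carry 10 different seeds. The second set holds the miR-200 and miR-183 groups, shown because their levels ranged widely between sham libraries.
miR-200b-3p: uAAUACUGccugguaaugauga
miR-200c-3p: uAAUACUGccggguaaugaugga
miR-429-3p: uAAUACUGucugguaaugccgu
miR-200a-3p: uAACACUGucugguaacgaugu
miR-141-3p: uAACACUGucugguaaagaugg
miR-183-5p: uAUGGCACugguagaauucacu
miR-96-5p: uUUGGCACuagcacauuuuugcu
miR-182-5p: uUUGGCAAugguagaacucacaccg
MiR-200b-3p, miR-200c-3p and miR-429-3p share 1 seed, and miR-200a-3p and miR-141-3p share another. The third set holds 4 of the miRNAs that the study named in lung, shown because their changes in lung and brain are compared.
miR-7b-5p: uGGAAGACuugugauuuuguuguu
miR-10b-5p: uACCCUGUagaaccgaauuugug
miR-21a-5p: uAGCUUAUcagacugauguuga
miR-335-5p: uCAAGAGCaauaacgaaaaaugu

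None of the 433 miRNAs that passed the count filter was called changed in C57 brain. Of 1915 mature miRNAs, 433 were tested with limma-voom, and 0 (0%) met the thresholds used for the other organs, an adjusted p under 0.05 and a minimum fold of 2.25, or 1.17 as a log2 value. No miRNA had an adjusted p under 0.05 at any fold change by limma-voom, where the smallest adjusted p was 0.106, against 3 (0.693%) by edgeR and 9 (2.08%) by DESeq2. At an unadjusted p under 0.05 there were 53 miRNAs (12.2%), of which 34 were higher (7.85%) and 19 lower (4.39%) in irradiated mice. The split moved to 26 higher and 29 lower with edgeR and 37 higher and 30 lower with DESeq2. Over all tested miRNAs, 233 (53.8%) had a higher and 199 (46%) a lower estimate, the median difference was 0.02 and the median absolute difference 0.21 on the log2 scale. In no miRNA did all 5 irradiated libraries lie above or below all 15 sham libraries in RPM (0% in either direction). Without the irradiated female 0 of 442 miRNAs were called and 46 had an unadjusted p under 0.05. On the quantile-normalised values that were tested, all 5 lay below for 1 miRNA (0.231%), miR-130b-3p, and above for none (0%).

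**Figure D1:**
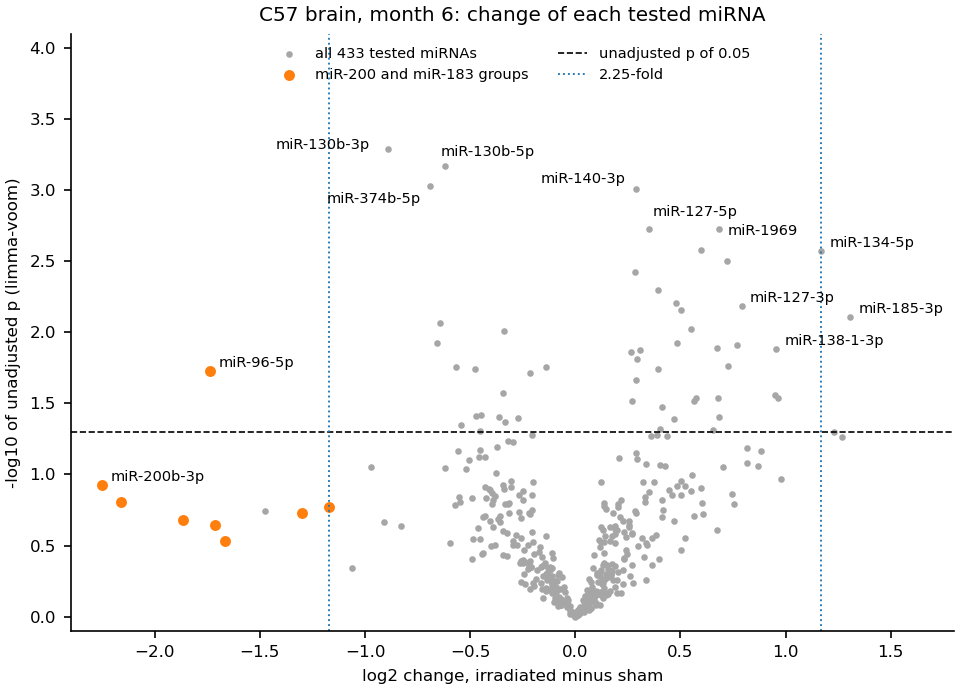
Log2 change between irradiated and sham C57 brain (x axis) against −log10 of the unadjusted limma-voom p (y axis) for the 433 tested miRNAs; the dashed line is an unadjusted p of 0.05 and the dotted lines are a fold of 2.25. The points with the smallest p lie inside the dotted lines, and the miR-200 and miR-183 groups (orange) lie at the far left with larger p-values.

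The intervals set a limit on what could have been missed. The 95% interval of the difference lay wholly inside a 2.25-fold change in either direction for 364 of 433 miRNAs (84.1%), and inside 1.5-fold for 157. The median distance from estimate to interval end was 0.48 on the log2 scale, a fold of 1.39. This distance shrank with abundance. It had a median of 0.65 among the 102 miRNAs under 10 RPM in sham brain, of which 72 were inside 2.25-fold, and a median of 0.35 among the 84 miRNAs over 1000 RPM, of which 77 were inside. For the 69 miRNAs whose interval crossed a 2.25-fold change, a change of that size was not excluded at this number of animals. These included the miR-200 and miR-183 groups, miR-134-5p, miR-127-3p, miR-29a-3p and the erythrocyte miR-144.

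**Figure D2:**
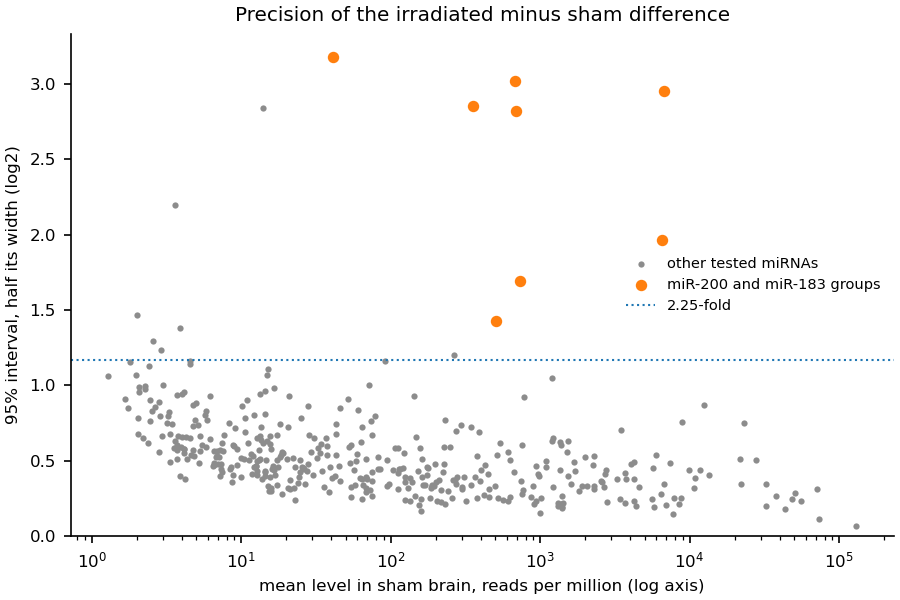
Distance from the estimate to the end of its 95% interval (log2, y axis) against mean sham abundance in RPM (log axis) for each tested miRNA; the dotted line is a 2.25-fold change. Most miRNAs over 10 RPM lie near or under 0.5, whereas the 8 members of the miR-200 and miR-183 groups (orange) lie above the line although several exceed 100 RPM.

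The smallest p-value belonged to miR-130b-3p, a member of the miR-130/301 family. Its hairpin lies at chr16:17124061-17124142 (GRCm38.p6, minus strand) in an intron of the protein-coding gene 2610318N02Rik. The 5 irradiated libraries held 5.75, 3.86, 4.31, 6.14 and 3.97 RPM, and the sham libraries ran from 5.80 through a median of 8.46 to 13.9 RPM. In 4 irradiated libraries the level was under that of every sham library, and in RPM the groups overlapped by 1 library. The difference, irradiated minus sham wherever no other direction is named, was −0.89 ± 0.23 on the log2 scale (SE; limma-voom unadjusted p = 0.00051, adjusted p = 0.106), from 9.40 ± 2.59 RPM in sham brain (SD, n = 15) to 4.81 ± 1.06 RPM (SD, n = 5). These levels rested on few counts, with 11 in the lowest library.

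The other arm of the same hairpin, miR-130b-5p, was lower as well. It was at 12.3, 8.42, 12.2, 13.9 and 7.63 RPM in irradiated brain and between 12.1 and 28.7 RPM (median 16.8) in sham brain, so that 2 irradiated libraries were under all sham libraries and all 5 were under the sham median. The difference was −0.62 ± 0.17 (adjusted p = 0.106). The relatives that carry the seed AGUGCAA, miR-130a-3p and miR-301a-3p, also had estimates under 0, and the family of 3 ran from −0.89 to −0.11. Among 124 hairpins with both arms tested, both arms had the same sign in 74, and both arms had an unadjusted p under 0.05 in 4. These were miR-130b (both lower), miR-127 and miR-322 (both higher) and miR-872, whose arms differed in sign.

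MiR-374b-5p, from an intron of the long noncoding RNA Ftx beside Xist (chrX:103573060-103573154), was at 20.5, 27.4, 30.9, 27.8 and 16.8 RPM in irradiated brain. Sham libraries ran from 25.5 to 54.8 RPM with a median of 40.6, and all 5 irradiated libraries were under that median. The difference was −0.69 ± 0.19 (adjusted p = 0.106). With edgeR, the 3 miRNAs miR-130b-3p, miR-130b-5p and miR-374b-5p reached an adjusted p of 0.0483 at differences of −0.98, −0.69 and −0.71, which are under the fold minimum. The 9 miRNAs with an adjusted p under 0.05 by DESeq2 included these 3 (miR-374b-5p at an adjusted p of 0.00444, miR-130b-3p at 0.0123 and miR-130b-5p at 0.0134). The others were miR-140-3p and miR-127-5p (0.00444 each), miR-129-2-3p (0.0166), miR-96-5p (0.0399), miR-1969 and miR-200b-3p (0.0471 each). All but miR-96-5p and miR-200b-3p were under the fold minimum. Estimates for the 9 tested miRNAs with the let-7 seed ran from −0.36 to 0.20. Let-7d-5p was 7910 ± 1397 RPM in sham brain (SD, n = 15) and 6102 ± 640 RPM in irradiated brain (SD, n = 5), a difference of −0.34 ± 0.12, let-7f-5p differed by −0.14 ± 0.06 (−0.08 without irradiated replicate 5) and let-7c-5p by 0.20. Of the 9, 6 had lower and 3 higher estimates, with a median of −0.08. At an unadjusted p under 0.05 there were 4 of the 9, all lower, against 12.2% of all tested miRNAs (4.39% lower), and none passed the adjusted threshold. Reads of near-identical let-7 members may have been shared in counting, so the split between members is uncertain.

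Among miRNAs with higher values, miR-140-3p had the smallest p. It lies in the Wwp2 gene and is best known from cartilage. Irradiated libraries held 189, 171, 224, 216 and 185 RPM, against 129 to 185 RPM (median 159) in sham brain, and 3 of 5 exceeded every sham library. The difference was 0.29 ± 0.08 (adjusted p = 0.106). MiR-1969 was at 18.9, 18.2, 21.2, 20.5 and 13.4 RPM against 6.78 to 16.2 RPM in sham brain, with 4 irradiated libraries above all sham libraries and a difference of 0.68 ± 0.20 (adjusted p = 0.135). The 4 were the males.

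The imprinted Dlk1-Dio3 cluster on chromosome 12 was the list with the most tested members. Of 96 listed members, 65 were tested, 39 had higher and 26 lower estimates, with a median of 0.08 (0.02 to 0.15 with 1 library left out) against 0.02 over all tested miRNAs. At an unadjusted p under 0.05, 7 (10.8%) were higher and 2 (3.08%) were lower, shares close to the 7.85% and 4.39% over all tested miRNAs. The summed RPM of the list ran from 48449 to 56090 (median 53740) in irradiated libraries and from 44840 to 53780 (median 46676) in sham libraries. All 5 irradiated sums thus exceeded the sham median within an overlapping range, and the sums were not tested. MiR-134-5p, which acts in dendrites on Limk1, is hosted by the noncoding RNA Mirg (chr12:109734139-109734209). It was at 581, 414, 485, 604 and 892 RPM in irradiated brain and ran from 127 through a median of 270.3 to 722 RPM in sham brain. All 5 irradiated libraries exceeded the sham median, and 1, the female, exceeded every sham library. The difference was 1.17 ± 0.36, just under the fold minimum, with an interval from 0.44 to 1.90 and an adjusted p of 0.146.

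MiR-127, which lies antisense to an exon of the imprinted gene Rtl1 (chr12:109592846-109592915), had higher values of both arms. MiR-127-3p was at 3308, 1503, 1721, 3679 and 3047 RPM against 759 to 2556 RPM (median 1357) in sham brain, a difference of 0.79 ± 0.27 (adjusted p = 0.215). MiR-127-5p was at 283, 277, 366, 349 and 220.3 RPM against 192 to 307 RPM, a difference of 0.35 ± 0.10 (adjusted p = 0.135). For miR-127-3p, 3 irradiated libraries exceeded the highest sham library and the other two lay within the sham range. Further members at an unadjusted p under 0.05 were miR-411-5p (difference 0.28), miR-379-5p (0.27), miR-540-3p (0.50) and miR-668-3p (0.68), all higher, and miR-376c-3p (−0.45, and −0.21 without irradiated replicate 5) and miR-543-3p (−0.33), both lower. The other tested members missed that threshold.

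**Figure D3:**
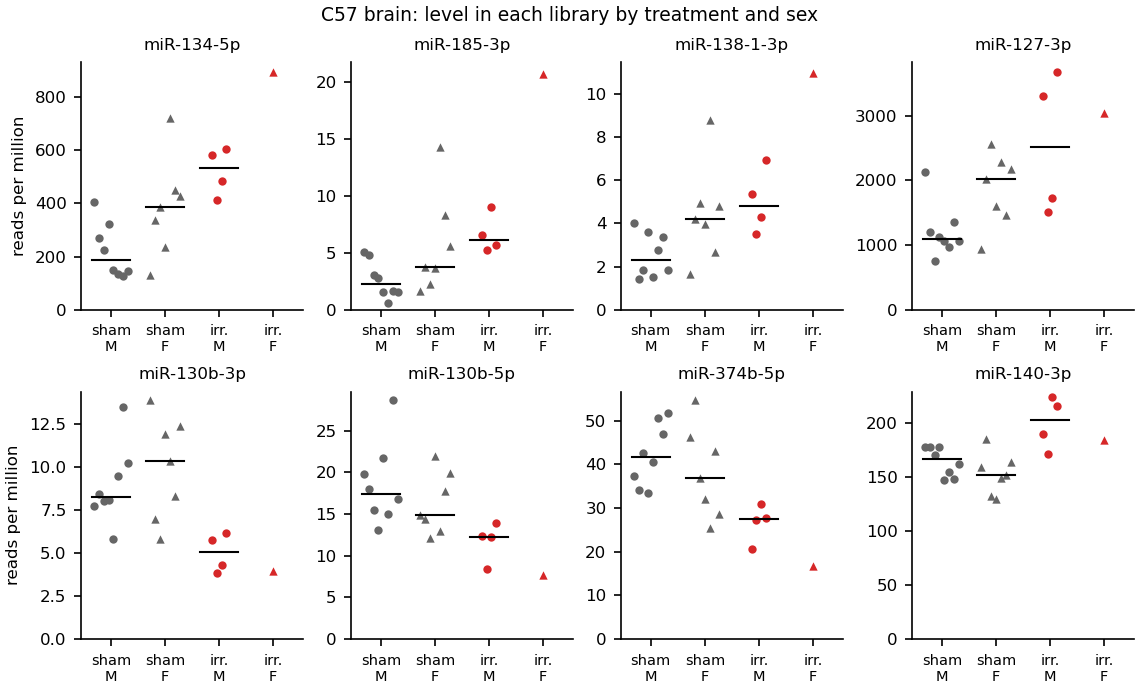
Level in RPM (linear axis from 0) of 8 miRNAs in each C57 brain library, split by treatment and sex; circles are males, triangles females, red irradiated, and bars medians. MiR-130b-3p, miR-130b-5p and miR-374b-5p sit low in all 5 irradiated libraries, while for miR-134-5p, miR-185-3p and miR-138-1-3p the 4 irradiated males sit above the median of sham males and the irradiated female is the highest library.

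Sex was not balanced, since 1 of 5 irradiated and 7 of 15 sham mice were female, and sex itself was associated with the profile. Between female and male sham C57 brain, 18 of 433 miRNAs (4.16%) were called, 15 higher and 3 lower in females, and 99 (22.9%) had an adjusted p under 0.05. The lower correlations of most female libraries moved with these differences, and their part in them was not tested. Of the 53 miRNAs at an unadjusted p under 0.05 in irradiated against sham brain, 6 (11.3%) were among these 99. In 5 of these 6 the female minus male difference had the opposite sign to the irradiated minus sham difference. The part of the uneven sexes in this was not tested. With sex as a covariate, 3 miRNAs (0.693%) were called in irradiated against sham brain. They were miR-134-5p (1.38 ± 0.34, adjusted p = 0.0392), miR-185-3p (1.66 ± 0.42, adjusted p = 0.0392) and miR-138-1-3p (1.23 ± 0.32, adjusted p = 0.0403). MiR-130b-5p (−0.68) and miR-374b-5p (−0.75) passed the adjusted p at under 2.25-fold. Across all alternatives the adjusted p of miR-134-5p ran from 0.0273 to 0.76, that of miR-185-3p from 0.0303 to 0.835 and that of miR-138-1-3p from 0.0403 to 0.835.

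MiR-185-3p, the minor arm of a hairpin in an intron of Tango2 (chr16:18327401-18327465), was rare. It was at 6.57, 5.26, 8.99, 5.73 and 20.7 RPM in irradiated brain and between 0.557 and 14.3 RPM (median 3.09) in sham brain, where the lowest library held 1 count. The difference without sex in the model was 1.31 ± 0.46 (adjusted p = 0.226). MiR-138-1-3p, the minor arm of a brain-enriched hairpin on chromosome 9 (chr9:122682876-122682974), was at 5.34, 3.51, 4.31, 6.96 and 10.98 RPM against 1.41 to 8.77 RPM, a difference of 0.95 ± 0.36 (adjusted p = 0.238). Its abundant arm, miR-138-5p, differed by 0.04 with an interval from −0.24 to 0.32. In all 3 of these miRNAs the highest irradiated library was the female, and sham females were higher than sham males by 0.78 for miR-134-5p, 1.10 for miR-185-3p and 0.93 for miR-138-1-3p, none of which passed the adjusted threshold.

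Males alone, 4 irradiated against 8 sham, gave more low p-values than all animals together. Of 412 miRNAs tested, 17 (4.13%) had an adjusted p under 0.05, of which 10 were higher and 7 lower, and 2 (0.485%) passed the fold minimum, miR-134-5p (1.31 ± 0.26, adjusted p = 0.0273) and miR-185-3p (1.41 ± 0.31, adjusted p = 0.0303). The absolute differences of the 17 ran from 0.34 to 1.41. In RPM, 7 of the 17 had no overlap between irradiated and sham males, against 14 of all 412 (3.4%). The 17 were chosen by their p-values in these same libraries, so their larger share is no further support. Irradiated males held 414 to 604 RPM of miR-134-5p and sham males 127 to 405 RPM. MiR-125b-1-3p was at 384 to 506 RPM against 250.1 to 352 RPM, and miR-1969 at 18.2 to 21.2 RPM against 9.44 to 14.8 RPM. On the lower side, miR-130a-3p was at 138 to 177 RPM against 183 to 283 RPM, miR-30c-5p at 3139 to 3546 RPM against 3636 to 6165 RPM and miR-135b-5p at 352 to 439 RPM against 464 to 546 RPM. MiR-204-5p, a choroid plexus miRNA, was among the 7 lower ones at −0.49 ± 0.12 (adjusted p = 0.0405). Whether the effect differed between the sexes was not tested, since there was 1 irradiated female.

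The largest differences of all had wide errors. The miR-200 family marks epithelium and olfactory neurons, and the miR-183 cluster (miR-183, miR-96 and miR-182, neighbours on chromosome 6) marks sensory cells. MiR-200b-3p differed by −2.25, miR-141-3p by −2.16, miR-200a-3p by −1.86, miR-429-3p by −1.72 and miR-200c-3p by −1.67, and the interval of each included both 0 and more than a 2.25-fold decrease. The spread between sham libraries was large. MiR-200a-3p ran from 124 to 32360 RPM over the 15 sham libraries, a 262-fold range, and miR-183-5p from 337 to 28387 RPM, an 84.1-fold range.

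These groups were high in most female libraries. Sham females held 209 to 32360 RPM of miR-200a-3p with a median of 8673, and sham males 124 to 1367 RPM with a median of 215. Irradiated males were at 133.9, 129.8, 165 and 760 RPM, within the range of sham males, and the irradiated female was at 2444 RPM, within the range of sham females. For miR-200b-3p, 3 of the 4 irradiated males were between 6.11 and 8.42 RPM, under the lowest sham library at 12.05 RPM. Among sham mice the female minus male difference was 4.53 for miR-200c-3p, 4.04 for miR-200b-3p (adjusted p = 0.00698) and 3.57 for miR-183-5p. In males alone the difference between irradiated and sham brain was −0.99 for miR-200b-3p and −0.46 for miR-200a-3p. DESeq2 called miR-200b-3p (−3.57 ± 1.09, adjusted p = 0.0471) and miR-96-5p (−2.38 ± 0.70, adjusted p = 0.0399), 2 of 433 (0.462%), in the fit without sex. MiR-96-5p was at 24.6, 57.2, 104, 96.2 and 210.5 RPM in irradiated brain, with the female highest, and 69.7 to 2153 RPM in sham brain. All irradiated males (24.6 to 104 RPM) lay under all sham males (106.9 to 244 RPM), unlike the other members, whose male ranges overlapped. Such separation, in either direction, held for 14 of 412 miRNAs tested in males (3.4%). The difference of miR-96-5p ran from −2.69 to −1.14 over 33 other fits. With limma-voom it differed by −1.74 ± 0.70 (adjusted p = 0.254).

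**Figure D4:**
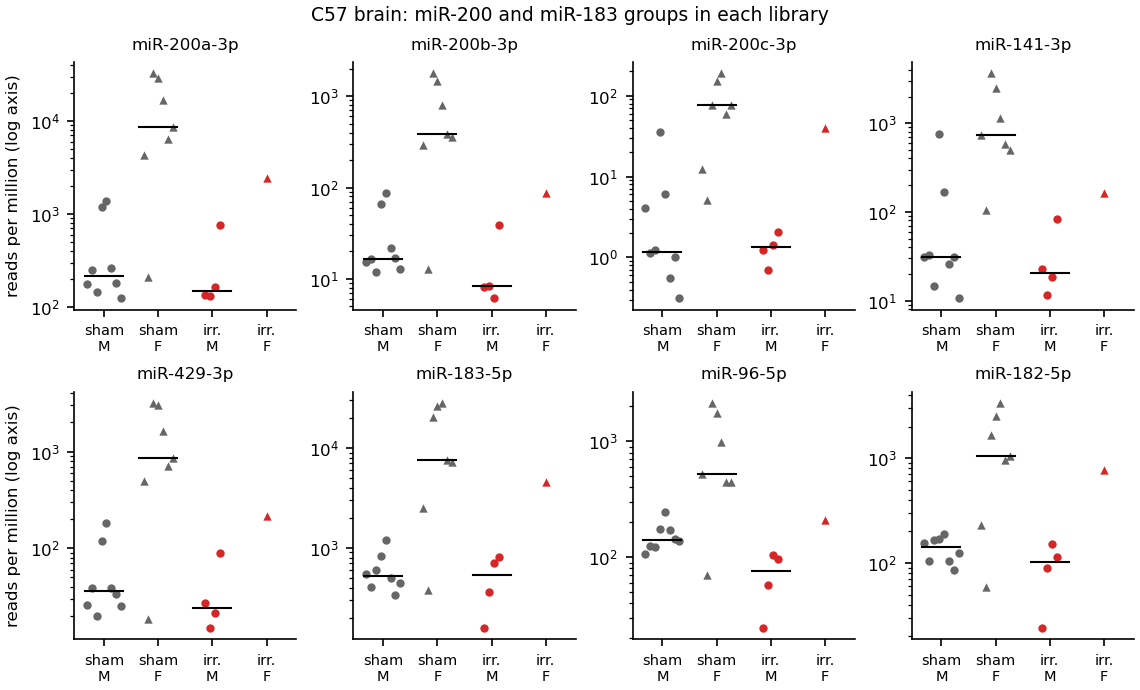
Level in RPM (log axis) of the 5 miR-200 family members and the 3 miR-183 cluster members in each C57 brain library by treatment and sex; circles are males, triangles females, red irradiated, and bars medians. All 8 are higher in most sham females than in sham males, and the 1 irradiated female is above the 4 irradiated males.

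MiRNAs of brain cell types showed small differences. Of 13 neuronal miRNAs, 8 had higher and 5 lower estimates with a median of 0.01 (−0.03 to 0.13 with 1 library left out), 1 (miR-129-2-3p, lower) had an unadjusted p under 0.05, and all 13 intervals were inside 2.25-fold. MiR-9-5p was 73352 ± 13964 RPM in irradiated brain (SD, n = 5) and 71768 ± 12712 RPM in sham brain (SD, n = 15), a difference of 0.02 with an interval from −0.29 to 0.33. MiR-128-3p differed by 0.01, with an interval from −0.22 to 0.25. MiR-124-3p differed by 0.01, with a wider interval from −0.69 to 0.72. Its irradiated libraries were at 4313, 4154, 4502, 4548 and 921 RPM, so that 4 lay close together and the female was under every sham library, the lowest of which was at 1081 RPM. Without the female the difference was 0.43.

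The 3 tested oligodendrocyte miRNAs had estimates between 0.01 and 0.27, all inside 2.25-fold. Their median of 0.13 ran from 0.02 to 0.52 with 1 library left out, and was highest without irradiated replicate 5. Without that library miR-219a-5p was at 0.60, miR-338-3p at 0.52 and miR-219a-2-3p at −0.21. Among 6 miRNAs linked to neuronal activity, 4 were higher and 2 lower, and miR-134-5p was the 1 with an unadjusted p under 0.05. MiR-132-3p, which is induced by CREB, differed by 0.15 with an interval from −0.34 to 0.65. The 8 tested miRNAs of the choroid plexus, most of them from introns of the serotonin receptor gene Htr2c, had 7 lower estimates and 1 at 0.00, with a median of −0.17, which was −0.01 without irradiated replicate 5 (the female). MiR-1912-3p, from an Htr2c intron (chrX:147009441-147009527), was at 6.16, 11.2, 10.1, 9.003 and 3.66 RPM against 7.58 to 17.1 RPM in sham brain, a difference of −0.64 ± 0.23 (adjusted p = 0.232). All 8 intervals lay inside 2.25-fold.

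MiRNAs of leukocytes and inflammation were not called either. Of the 5 leukocyte miRNAs 3 had higher and 2 lower estimates with a median of 0.25, which was 0.03 in males alone. MiR-142a-3p, a marker of blood cells and microglia, was at 73.5, 67.4, 116, 110 and 139 RPM against 52.2 to 94.98 RPM in sham brain, with 3 of 5 above all sham libraries and a difference of 0.60 ± 0.18 (adjusted p = 0.146). Its other arm, miR-142a-5p, differed by −0.10 with an interval from −0.69 to 0.50. The 5 tested miRNAs of inflammation and gliosis had estimates from 0.04 to 0.48, of which none had an unadjusted p under 0.05. MiR-155-5p was highest at 0.48 with an interval from −0.13 to 1.10, and miR-146a-5p differed by 0.13 with an interval from −0.34 to 0.59. Of 7 tested p53-linked miRNAs, 6 had lower estimates, none with an unadjusted p under 0.05, and miR-34a-5p differed by −0.04 with an interval from −0.37 to 0.30.

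Blood and vessel content was compared by the summed RPM of each list. The 4 erythrocyte miRNAs summed to between 58.3 and 148 RPM in irradiated libraries and between 31.5 and 191 RPM in sham libraries. The 5 leukocyte miRNAs summed to between 542 and 860 RPM and between 581 and 881 RPM respectively. The 2 endothelial miRNAs differed by 0.00 for both arms of miR-126a. For miR-126a-3p, the most abundant miRNA, quantile normalisation fixes nearly the same value in every library, so the RPM are the better guide: 126552 ± 17746 in irradiated and 130621 ± 20653 in sham brain. The 4 tested mesenchymal miRNAs had a median of 0.10, the 5 ciliated ones −0.05, the 2 tested Hox cluster ones 0.11 and the 3 neuroendocrine ones −0.02, and each of these medians changed sign when 1 library was left out. The 3 tested cardiac muscle miRNAs had a median of −0.34, with miR-1a-3p lower at −0.34 (adjusted p = 0.32). In a whole homogenate, fewer cells of a type and less of a miRNA per cell cannot be told apart.

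MiRNAs that differed in the irradiated organs were then followed in brain. In lung of the same animals 21 of 350 miRNAs (6%) were called and in heart 3 of 312 (0.962%), each by a model of that organ alone. Of the 21 called in lung, 17 were tested in brain, and their brain differences ran from −0.64 to 0.50. Of these 17, 0 were called and 1, miR-1912-3p, had an unadjusted p under 0.05, against 0% and 12.2% of all 433 tested. The sign in brain was that in lung for 12 of the 17, including miR-1912-3p (−1.96 in lung, −0.64 in brain). The 3 called in heart ranged from −0.05 to 0.44 in brain, 2 of them with the sign they had in heart. Agreement in sign was not tested.

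MiR-7b-5p, which had the largest difference in lung at 4.78, was at 10552, 10387, 8764, 11355 and 11727 RPM in irradiated brain and 6519 to 19795 RPM in sham brain. The brain difference was 0.29 with an interval from −0.15 to 0.73. MiR-10b-5p differed by 2.11 in lung and 1.89 in heart, and by 0.15 with an interval from −0.63 to 0.94 in brain, where it was at 23.9 ± 6.07 RPM in irradiated (SD, n = 5) and 25.3 ± 11.5 RPM in sham libraries (SD, n = 15). The mean RPM thus differed in the opposite direction to the fitted value, whose sign also changed in 5 of 33 other fits. MiR-21a-5p differed by 0.04 in brain with an interval from −0.21 to 0.29. MiR-34a-5p differed by 1.17 in lung and −0.04 in brain. MiR-196b-5p had at most 2 counts in any C57 brain library and was not tested there. Of a list of 9 among the miRNAs that the study named in lung, 8 were tested in brain, 5 with higher and 3 with lower estimates (median 0.10), and of a list of 8 named in heart 7 were tested, 3 higher and 4 lower (median −0.04), none with an unadjusted p under 0.05. Of a list of 19 among those it named in plasma or in its survival models, 14 were tested, 6 higher and 8 lower (median −0.04). At an unadjusted p under 0.05, miR-142a-3p was higher (7.14% of the 14) and miR-96-5p lower (7.14%). Over all tested miRNAs these shares were 7.85% and 4.39%. The medians of all 3 lists changed sign in other fits. The study chose the lung and heart names on libraries of these animals or of the C3H mice of the series.

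In a joint fit of lung, heart and brain, the difference in lung minus that in brain was called for 17 of 502 miRNAs (3.39%). Of these, 5 had passed the count filter in only 1 of the 2 organs, so that their difference rests on low counts in the other, and they are not described further. Among the 308 miRNAs that passed in both, 12 (3.9%) were called, 10 higher and 2 lower in lung. The lung minus brain difference was 4.05 ± 0.35 for miR-7b-5p (adjusted p = 3.8e-17), 1.81 ± 0.46 for miR-10b-5p (adjusted p = 0.00844), 1.74 ± 0.38 for miR-335-5p (adjusted p = 0.00228) and 1.32 ± 0.38 for miR-21a-5p (adjusted p = 0.025). Of the 12, 3 had an unadjusted p under 0.05 in brain, namely miR-130b-3p (1.76 ± 0.44), miR-376c-3p (1.21 ± 0.35) and miR-547-3p (1.29 ± 0.41). For heart minus brain 4 of 502 (0.797%) were called, 1 of them, miR-196b-5p, having passed the filter in neither organ. The other 3 were among the 285 miRNAs that passed in both organs (1.05%) and were miR-10b-5p (1.83 ± 0.45, adjusted p = 0.0181), miR-34c-5p (1.39 ± 0.35, adjusted p = 0.0181) and miR-329-5p (−2.12 ± 0.46, adjusted p = 0.00525). The 5 and 15 animals were the same in the 3 organs.

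**Figure D5:**
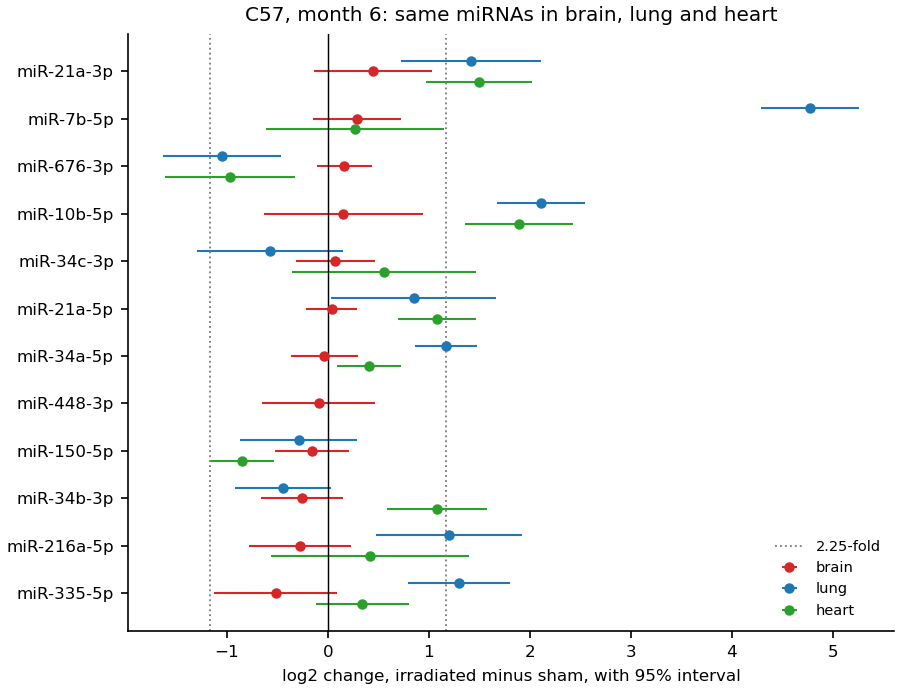
Log2 change between irradiated and sham C57 tissue with 95% interval (x axis) in brain (red), lung (blue) and heart (green) for the 12 listed miRNAs tested in brain. Every brain interval includes 0 and lies inside the dotted 2.25-fold lines, while miR-7b-5p and miR-10b-5p in lung lie beyond them.

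The C3H strain, sampled in month 4 with 7 irradiated and 8 sham female mice, gave no difference from C57 that passed the threshold. The C57 minus C3H difference was called for 0 of 433 miRNAs (0%), with 21 (4.85%) at an unadjusted p under 0.05, a smallest adjusted p of 0.743 with limma-voom, and 0 calls by edgeR and DESeq2 (24 and 29 at an unadjusted p under 0.05). In C3H brain alone 9 miRNAs (2.08%) had an unadjusted p under 0.05. MiR-130b-3p differed by −0.13 in C3H brain, miR-134-5p by −0.13, miR-374b-5p by 0.17 and miR-140-3p by −0.06. Strain, time after exposure and the sex of the mice cannot be told apart in this comparison.

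The GC content of the miRNAs moved with the result. Of the 433 tested, 372 had a RefSeq sequence, with a median GC content of 45.6%. The 32 higher miRNAs at an unadjusted p under 0.05 that had a sequence had a median of 53.4%, and the 16 lower ones 45.5%. The slope of each library's deviation on GC content ran from 0.02 to 0.04 log2 units per 10% in irradiated males, from −0.15 to 0.09 in sham males and from −0.15 to 0.39 in sham females, and was 0.50 in the irradiated female. With that slope removed, 0 of 372 miRNAs were called and 46 had an unadjusted p under 0.05.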

How the data were processed

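MiRNAs were extracted from homogenised brain and sequenced as small RNA libraries. According to the study's methods and the labels, the authors trimmed and aligned the reads with cloud software (mouse, mm10), rejected runs with few miRNA reads and deposited raw counts for 1915 mature miRNAs per library, without normalisation. Use of molecular identifiers and the handling of reads that fit several miRNAs were not given in the sources used here, and any error of a single count covers counting alone. Column names gave each sample (0 columns of no sample), and 0 rows lacked a name.

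A count filter (filterByExpr, edgeR 4.0.16; minimum count 10, minimum total 15) was added here. As in the study's methods, values were then quantile-normalised as log2 RPM with voom and fitted in R 4.3.3 with limma 3.58.1 over all 35 brain libraries in 4 groups (strain by irradiation). Moderated tests were two-sided, adjusted by the Benjamini-Hochberg method over 433 miRNAs. The study's fold minimum of 2.25 was used. Lung, heart and brain were also fitted jointly, and sexes in a fit with 6 groups. The p-values measure the spread between animals. RPM values use each library's full total. Code was checked on simulated counts.

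Other settings tried were DESeq2 1.42.0, the quasi-likelihood test of edgeR (TMM), voom scaled by TMM or by library size, a looser filter keeping miRNAs with 1 count in at least 1 library, a stricter one asking for 10 counts in each, omission of the fold minimum, sex or the label letter (A or B, meaning not given) as covariate, C57 libraries, C57 males or 1 letter alone, and leaving out each C57 library. Removal of a GC slope per library was chosen after seeing the data. The miRNAs named were up to 12 higher and 12 lower with the smallest p in C57 brain, those called by any model, members of the lists, the 10 most abundant, and those called in C57 lung or heart. A few others of the male and joint fits were named after their values were seen. Members and lists were chosen with earlier results of these data known. The lists of plasma, lung and heart miRNAs hold a selection of those named by the study. No pair of libraries in a group agreed within sampling noise (smallest chi-square per degree of freedom 15.5). Lung and brain libraries of 1 animal deviated together with a median correlation of 0.09 (over 0.1 in 9 of 20 animals), heart and brain with 0.12 (12 of 20). Sequences are from RefSeq (GRCm38.p6), with 372 of 433 tested miRNAs matched, and host genes from GENCODE M21. Blood fractions were not analysed here.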

Additional observations from a re-analysis of the deposited data

Results flagged for a closer look

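Each of the 161 named miRNAs was tested for a sample far from the others among its 5 irradiated values (Dixon's criterion at 0.71, which chance passes in about 1 of 20 groups), and 29 had 1 distant library. In 27 of the 29 it was replicate 5, the irradiated female, which was the highest in 16 and the lowest in 11. Its value lay within the range of sham females in 13 of the 27, above all sham libraries in 6 and below all sham libraries in 8.

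Above all sham libraries were miR-185-3p (20.7 RPM, other irradiated libraries 5.26 to 8.99), miR-16-5p (56643 RPM), miR-485-5p (20.1 RPM), miR-199a-3p (300.2 RPM), miR-770-3p (296 RPM) and miR-370-3p (883 RPM, others 208 to 332). Below all sham libraries were the neuronal miR-124-3p (921 RPM, others 4154 to 4548) and miR-218-5p (2957 RPM, others 7295 to 8018), and miR-335-5p (184 RPM), miR-126a-5p (2695 RPM), miR-34b-5p (32.0 RPM), miR-376c-3p (80.8 RPM, others 186 to 207), miR-300-5p (6.10 RPM) and miR-369-5p (151 RPM). Within the sham range it was highest for miR-200a-3p (2444 RPM, others 129.8 to 760), miR-200c-3p (39.97 RPM), miR-183-5p (4563 RPM), miR-182-5p (776 RPM), miR-184-3p (98.9 RPM), miR-128-3p (69758 RPM), miR-129-5p (4088 RPM), miR-219a-2-3p (10052 RPM), miR-486a-5p (36.0 RPM) and miR-431-3p (82.1 RPM), and lowest for miR-124-5p (48.5 RPM), miR-153-3p (284 RPM) and miR-300-3p (2010 RPM). The other two distant values were the highest in their groups, miR-132-5p in replicate 2 (46.3 RPM) and miR-541-3p in replicate 1 (20.1 RPM).

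By the joint model, 12 miRNAs that passed the count filter in both organs were called in lung minus brain and 3 in heart minus brain. Flagged among the 12 were miR-7b-5p (4.05), miR-21a-5p (1.32), miR-130b-3p (1.76), miR-10b-5p (1.81) and miR-335-5p (1.74), and among the 3 miR-10b-5p (1.83). The flag covered only the miRNAs with the smallest p in brain, those called in any brain fit and some of the lists.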

How the results depend on the processing

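The absence of calls in C57 brain was kept with edgeR, voom with TMM or library size alone, the stricter filter, no fold minimum, the letter as covariate, C57 libraries alone, either letter alone, removal of the GC slope and every fit that left out 1 C57 library (0 calls in all 20). Calls appeared with DESeq2 (2), the looser filter (2), sex as covariate (3) and C57 males alone (2). The 53 of 433 miRNAs (12.2%) at an unadjusted p under 0.05 became 108 of 1138 with the looser filter and 90 of 433 with sex as covariate. They became 65 of 420 in C57 libraries alone and 95 of 412 in C57 males alone. Letter A alone gave 23 of 422, letter B alone 25 of 426, and fits without 1 library between 40 and 69. With the looser filter 785 of 1138 intervals lay inside 2.25-fold, and without 1 library between 344 and 367. The strain comparison kept 0 calls throughout. The lung minus brain count of 17 over all 502 miRNAs became 28 with library size alone and 5 with the stricter filter, which tested 168. With the animal as a replicate block it was 20, and heart minus brain went from 4 to 5; irradiated and sham brain came from different animals and could not be blocked. Female against male sham brain gave between 11 and 27 calls without 1 library, and 99 with no fold minimum. Differences in total counts ran from −391352 to −180598 and in detected miRNAs from −9.87 to 3.63 without 1 library, none with an exact p under 0.05. Of 5264 values of 161 named miRNAs under alternatives, 273 had the opposite sign to the reported estimate, over 74 miRNAs with reported estimates of at most 0.35 in size. Among them were miR-124-3p (−0.30 to 0.43), miR-126a-5p (−0.13 to 0.24) and miR-10a-5p (−0.33 to 0.33). For miRNAs with an unadjusted p under 0.05 in the reported fit this happened once, when let-7f-5p went from −0.14 to 0.0498 with the GC slope removed. The epithelial list's median of −1.86 was −3.32 with edgeR, −3.22 with DESeq2, −3.11 in letter A and −2.73 without irradiated replicate 5. It was −1.02 in letter B, −0.86 with sex as covariate and −0.67 in males alone. Without 1 library the median ran from −0.27 to −0.01 for the choroid plexus list (−0.01 without irradiated replicate 5), from −0.10 to 0.21 for the mesenchymal (−0.10 without irradiated replicate 5), from −0.15 to 0.04 for the ciliated (0.04 without irradiated replicate 5), from −0.05 to 0.34 for the Hox (−0.05 without sham replicate 12) and from −0.08 to 0.05 for the neuroendocrine list (0.05 without sham replicate 4). The leukocyte median of 0.25 was 0.11 with edgeR, 0.08 with the stricter filter, 0.03 in males alone, 0.04 in letter A and 0.46 in letter B, and the Hox median −0.07 with edgeR and −0.26 in males alone. With 5 irradiated animals, the 95% interval of a typical miRNA ended 1.39-fold from its estimate. This is not a detection limit, since miR-130b-3p at −0.89 had a limma-voom adjusted p of 0.106.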

Other observations

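The letter in the labels, A or B, split the irradiated mice into 2 and 3 and the sham mice into 8 and 7. In letter A alone 23 of 422 miRNAs and in letter B alone 25 of 426 had an unadjusted p under 0.05, with 0 called in either by limma-voom. The estimate of miR-130b-3p was −0.78 in letter A and −1.03 in letter B, that of miR-134-5p 0.90 and 1.38, that of miR-374b-5p −0.58 and −0.76, that of miR-140-3p 0.20 and 0.34, and that of miR-142a-3p 0.13 and 0.98.

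The looser filter admitted 1138 miRNAs and called 2, miR-297a-5p and miR-181b-2-3p, each with 0 counts in all 5 irradiated libraries and 0 to 2 counts in the sham libraries. Both groups were at or under the level of 3 counts that a count of 0 allows, so no fold is given.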
